A study of Mus musculus with 12 samples.

Results

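The endoplasmic reticulum (ER) unfolded protein response was followed through 10 of its genes in inguinal white adipose tissue (iWAT), the subcutaneous fat depot in which beige adipocytes form in the cold. The genes were chosen by name: the lumenal chaperones Hspa5, Hsp90b1, Hyou1 and Calr, the co-chaperones Dnajb9 and Sdf2l1, the disulfide isomerase Pdia4, the degradation factors Herpud1 and Edem1, and the transcription factor Xbp1. All 10 were listed among the 14159 genes of the count table, and all 10 passed the filter on low values that left 13404 genes for testing. Across cold exposure, Dnajb9 rose in both genotypes and several others fell. Hspa5, the gene most widely used as a readout of the response, did not pass the main test (limma). With DESeq2 it passed narrowly as higher in Atf4WT (adjusted p = 0.04995). The loss of Atf4 changed none of the 10 past the threshold, either in the cold or at room temperature (RT). Only 0.0298% of all tested genes passed it in the cold and 0.00746% at RT, so this absence is not particular to the 10.

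The 12 libraries were poly(A) RNA from iWAT of C57BL/6-background mice in 4 groups of 3 biological replicates. Atf4WT mice carried floxed Atf4 alleles without Cre, and Atf4AKO littermates carried the same alleles with Adiponectin-Cre, which deletes Atf4 in adipocytes and leaves it in the other cells of the fat pad. Mice of each genotype were housed at RT or exposed to cold for 24 h. The age and sex of the mice used for sequencing are not given in the sources used here. The labels do not state whether each library came from a separate animal, so the p-values measure the spread between these libraries. The question addressed was whether genes of ER stress move with cold exposure, and whether ATF4 in adipocytes bears on it.

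Secreted and membrane proteins fold in the ER with the help of chaperones, and an excess of unfolded clients is sensed by the membrane proteins IRE1 (Ern1), PERK (Eif2ak3) and ATF6. IRE1 splices Xbp1 mRNA into the form that encodes an active transcription factor, ATF6 is cut to release one, and PERK phosphorylates eIF2α, which slows translation and favours the translation of ATF4. XBP1 and ATF6 drive chaperone and degradation genes, while ATF4 drives amino acid and stress genes such as Ddit3 (CHOP). The same eIF2α step is reached from other stresses, including mitochondrial stress, and the joint pathway is called the integrated stress response. The gene counts used here do not separate spliced from unspliced Xbp1 mRNA.

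Many genes of the response carry ER stress elements in their promoters, through which ATF6, XBP1 and NF-Y act. RefSeq (GRCm38.p6) gave a window from 250 bases before to 50 after the start for 9 of the 10 genes, all but Hyou1, and both strands were searched. The ER stress response element (ERSE), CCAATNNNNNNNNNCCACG, was in 3 of the 9 windows and in 0.119% of 32851 mouse promoter windows. ERSE-II, ATTGGNCCACG, was in 1 of the 9 and in 0.0365% of all windows. The CARE element bound by ATF4 and CHOP dimers, TGATGCAA, was in 1 of the 9 and in 0.895% of all windows. Neither the XBP1 element core TGACGTGG (0.676% of all windows) nor the cAMP element TGACGTCA (1.79%) was in any of the 9. None of these motifs overlapped another in the windows shown. The windows with a match, and that of Dnajb9, the gene that rose, run 5′ to 3′ along the gene, with the motif in capitals:
Hspa5 (chr2:34771840-34772139, plus strand; ERSE at -65 to -47 from the start): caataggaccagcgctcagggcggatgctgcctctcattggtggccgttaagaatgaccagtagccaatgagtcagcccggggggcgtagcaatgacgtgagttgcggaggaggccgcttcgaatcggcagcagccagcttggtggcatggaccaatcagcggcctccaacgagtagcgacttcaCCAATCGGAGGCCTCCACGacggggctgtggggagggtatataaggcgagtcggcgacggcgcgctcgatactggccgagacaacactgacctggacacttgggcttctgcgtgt
Hsp90b1 (chr10:86705395-86705694, minus strand; ERSE at -212 to -194 and, on the other strand, at -107 to -89 from the start): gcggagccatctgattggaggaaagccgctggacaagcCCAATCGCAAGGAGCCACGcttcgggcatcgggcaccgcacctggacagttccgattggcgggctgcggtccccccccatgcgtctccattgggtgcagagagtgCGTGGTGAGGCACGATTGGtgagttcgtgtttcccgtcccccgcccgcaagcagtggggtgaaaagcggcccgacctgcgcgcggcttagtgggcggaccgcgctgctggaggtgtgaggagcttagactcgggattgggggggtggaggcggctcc
Calr (chr8:84846882-84847181, minus strand; ERSE on the other strand at -162 to -144 from the start): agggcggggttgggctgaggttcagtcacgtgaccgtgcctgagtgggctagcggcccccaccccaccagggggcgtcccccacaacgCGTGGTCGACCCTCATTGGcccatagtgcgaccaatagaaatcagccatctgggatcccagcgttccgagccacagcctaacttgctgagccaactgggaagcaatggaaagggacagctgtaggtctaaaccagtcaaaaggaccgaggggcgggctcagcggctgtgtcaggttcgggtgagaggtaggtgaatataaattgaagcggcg
Herpud1 (chr8:94386179-94386478, plus strand; CARE on the other strand at -112 to -105 and ERSE-II at -52 to -42 from the start): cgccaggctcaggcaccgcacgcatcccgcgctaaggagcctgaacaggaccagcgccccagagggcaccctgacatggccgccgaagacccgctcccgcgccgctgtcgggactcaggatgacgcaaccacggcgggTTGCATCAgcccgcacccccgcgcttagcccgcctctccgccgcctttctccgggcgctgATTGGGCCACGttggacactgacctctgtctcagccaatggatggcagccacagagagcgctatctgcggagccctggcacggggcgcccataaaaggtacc
Dnajb9 (chr12:44210019-44210318, minus strand; no match): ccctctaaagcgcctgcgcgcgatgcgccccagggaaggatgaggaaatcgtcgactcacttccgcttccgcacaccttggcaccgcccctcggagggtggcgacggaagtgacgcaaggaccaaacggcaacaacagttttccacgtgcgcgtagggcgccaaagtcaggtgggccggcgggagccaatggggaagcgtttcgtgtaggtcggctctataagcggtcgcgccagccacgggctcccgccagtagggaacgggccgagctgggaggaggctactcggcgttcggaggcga

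A match is a description of the letters in the window, and a window without one says nothing about the factor. Genes chosen by name for this response were searched for elements known from it, so the shares above are no test of enrichment. The starts used for the windows are those of RefSeq, and the gene positions given below are from GENCODE. By GENCODE, Dnajb9 starts at 44210326 on the minus strand, so its window, 44210019 to 44210318, lies inside the gene. Sequence upstream of that start was not searched. The values below are the authors' normalized counts, that is, reads divided by a size factor for each library, and are comparable between libraries for the same gene.

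The libraries held 25719476 to 29105147 reads assigned to genes. Atf4 itself, the deleted gene, was counted at 5669, 4670.3 and 4107 in Atf4WT RT, 7644, 7511 and 5756 in Atf4WT cold, 1594, 1469.6 and 1639 in Atf4AKO RT and 1578, 788 and 1179.8 in Atf4AKO cold, so that every Atf4AKO library was below every Atf4WT library. White adipocyte markers summed to between 1068265 and 1608067 in every library, and the 7 beige markers summed to between 6816 and 9628 at RT and between 106876 and 171107 after cold. Markers of cells other than adipocytes differed between libraries, and in bulk tissue fewer cells of a type and less RNA per cell cannot be told apart. The 8 fibroblast markers summed to 122771 to 154038 in Atf4WT RT and 117064 to 178584 in Atf4AKO RT, against 32710 to 82612 in Atf4WT cold and 30407 to 72237 in Atf4AKO cold. The 10 listed B cell markers summed to 3942 to 13494 in Atf4WT cold, 91.8 to 371 in Atf4AKO cold, 157 to 4012 in Atf4WT RT and 150.4 to 645 in Atf4AKO RT. The 13 T cell markers summed to 1016 to 7996 in Atf4WT cold and at most 979 in the other groups. Plasma cell markers, which mark cells with a large ER, summed to 948 to 2437 in all libraries. Macrophage markers ranged from 5915 to 48775, endothelial markers from 16853 to 23082, muscle markers from 73.1 to 104361 and the 2 listed mammary markers from 12.1 to 37.5. Every gene of the count table had at least 1 read in every library, so a marker at 0 in a library could not be seen here. Of the marker lists as written, 2 of 11 mammary and 6 of 10 muscle markers were in the count table.

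Among the lumenal chaperones, none rose past the limma test after cold and 1 fell in both genotypes. Hspa5 (BiP; NM_001163434; chr2 34771970 to 34777547, plus strand, GRCm38) is the Hsp70 chaperone that holds unfolded clients and keeps the sensors inactive. Its normalized counts were 11012, 10420.4 and 11700.1 in Atf4WT RT and 11923, 12741 and 13658 in Atf4WT cold. In Atf4AKO they were 11341, 12863 and 13559.7 at RT and 13435, 13682 and 13219 after cold. The cold libraries lay above the RT libraries in Atf4WT, with a narrow gap, and the groups overlapped in Atf4AKO. The mean went from 11044 ± 640.4 (SD, n = 3) to 12774 ± 868 (SD, n = 3) in Atf4WT, a log2 fold change of 0.21 (95% interval 0.014 to 0.40, adjusted p = 0.094). In Atf4AKO the log2 fold change was 0.10 (95% interval -0.10 to 0.29, adjusted p = 0.44). In linear terms the intervals run from 1.01-fold to 1.32-fold in Atf4WT and from 0.935-fold to 1.23-fold in Atf4AKO. With DESeq2 on the recovered reads, the Atf4WT value had an adjusted p of 0.04995 and so passed narrowly.

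Hsp90b1 (GRP94; NM_011631; chr10 86690209 to 86705509, minus strand), the Hsp90 of the ER, fell in both genotypes. Normalized counts of Hsp90b1 were 12166, 11932 and 12636 in Atf4WT RT and 9421, 9765 and 10456 in Atf4WT cold. In Atf4AKO they were 13281, 12721 and 15478 at RT and 10799, 10072 and 8882 after cold. Every cold library was below every RT library of either genotype. Hsp90b1 fell in Atf4WT, with a log2 fold change of -0.31 (95% interval -0.53 to -0.095, adjusted p = 0.032), and in Atf4AKO, with -0.48 (95% interval -0.69 to -0.26, adjusted p = 0.0053). The Atf4WT call was lost in 5 of the 6 fits that each left out 1 library, with adjusted p between 0.065 and 0.094, and held only without Atf4WT cold replicate 2 (adjusted p = 0.041, limma).

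Hyou1 (GRP170; NM_021395; chr9 44379490 to 44392369, plus strand) exchanges the nucleotide of BiP. Hyou1 had normalized counts of 1709, 1785 and 1867 in Atf4WT RT, 1583, 1694 and 1705 in Atf4WT cold, 1922, 1808 and 2193 in Atf4AKO RT and 1691, 1769 and 1678 in Atf4AKO cold. Both genotypes had lower counts in every cold library than in every RT library, but the differences were small and did not pass the test, with log2 fold changes of -0.11 (95% interval -0.28 to 0.07, adjusted p = 0.34) in Atf4WT and -0.20 (95% interval -0.38 to -0.025, adjusted p = 0.087) in Atf4AKO. Calr (calreticulin; NM_007591; chr8 84841850 to 84846934, minus strand) is the soluble lectin chaperone of glycoproteins and binds calcium. Its normalized counts were 19661, 14991 and 17011 in Atf4WT RT, 13379.8, 14643 and 15395 in Atf4WT cold, 17502, 20773 and 21915 in Atf4AKO RT and 14192, 15544 and 13518 in Atf4AKO cold. The groups overlapped in Atf4WT, where the log2 fold change was -0.24 (95% interval -0.51 to 0.023, adjusted p = 0.15), and were apart in Atf4AKO, where Calr fell, with -0.47 (95% interval -0.74 to -0.20, adjusted p = 0.017). The Atf4AKO call was lost without Atf4AKO RT replicate 2 (adjusted p = 0.054, limma) and without Atf4AKO cold replicate 2 (adjusted p = 0.056).

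Dnajb9 was the only one of the 10 that rose past the limma test. Dnajb9 (ERdj4; NM_013760; chr12 44205559 to 44210326, minus strand) is a J-domain co-chaperone that brings BiP to IRE1 and to misfolded clients. Normalized counts of Dnajb9 were 1183, 1103 and 1232 in Atf4WT RT and 2253, 2434 and 2405 in Atf4WT cold. In Atf4AKO they were 1309, 1395 and 1362 at RT and 2296, 2873 and 2709 after cold. The lowest cold library of either genotype was well above the highest RT library. The mean went from 1173 ± 65.3 (SD, n = 3) to 2364 ± 97.4 (SD, n = 3) in Atf4WT and from 1355 ± 43.5 (SD, n = 3) to 2626 ± 297 (SD, n = 3) in Atf4AKO. These are fold changes of 2.02 and 1.93, with log2 fold changes of 1.01 (95% interval 0.82 to 1.20, adjusted p = 4.87e-05) and 0.95 (95% interval 0.75 to 1.14, adjusted p = 7.16e-05). The difference between the genotypes in this rise was -0.063 (95% interval -0.34 to 0.21, adjusted p = 0.996).

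Sdf2l1 (NM_022324; chr16 17130138 to 17132383, minus strand), a partner of the ER J-domain proteins, had the lowest counts of the set and the widest intervals. Sdf2l1 had normalized counts of 164, 180.0 and 245 in Atf4WT RT, 109.9, 135 and 183 in Atf4WT cold, 237, 148 and 289 in Atf4AKO RT and 117, 77.1 and 127 in Atf4AKO cold. The Atf4WT groups overlapped, with a log2 fold change of -0.47 (95% interval -1.11 to 0.17, adjusted p = 0.24). The Atf4AKO groups did not, and Sdf2l1 fell there, with -1.04 (95% interval -1.68 to -0.40, adjusted p = 0.024). That call was lost without Atf4AKO RT replicate 0 (adjusted p = 0.078, limma), Atf4AKO RT replicate 2 (0.080) or Atf4AKO cold replicate 1 (0.088).

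Pdia4 (ERp72; NM_001368756; chr6 47796141 to 47813430, minus strand), a disulfide isomerase of the lumen, fell in both genotypes. Its normalized counts were 3127, 2898 and 3213 in Atf4WT RT and 1953, 2363 and 2177 in Atf4WT cold. In Atf4AKO they were 3021, 3380.4 and 3735 at RT and 2289.6, 1928 and 1776 after cold. Every cold library was below every RT library, also across genotypes. The log2 fold changes were -0.51 (95% interval -0.76 to -0.26, adjusted p = 0.0063) in Atf4WT and -0.76 (95% interval -1.01 to -0.51, adjusted p = 0.00098) in Atf4AKO.

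The degradation factors differed from each other. Herpud1 (NM_001357205; chr8 94386438 to 94395377, plus strand) is a membrane scaffold of the ubiquitin ligase complex that removes misfolded proteins. Normalized counts of Herpud1 were 2073, 2116 and 2222 in Atf4WT RT, 1726, 2053 and 1921 in Atf4WT cold, 1814, 2720.2 and 2308 in Atf4AKO RT and 1516, 1985 and 1940.5 in Atf4AKO cold. It did not pass the test, with -0.17 (95% interval -0.49 to 0.15, adjusted p = 0.39) in Atf4WT and -0.32 (95% interval -0.64 to -0.0035, adjusted p = 0.12) in Atf4AKO. Edem1 (NM_138677; chr6 108828641 to 108859356, plus strand) takes part in trimming mannose from misfolded glycoproteins and passing them to degradation. Edem1 had normalized counts of 4552, 4219.9 and 4144 in Atf4WT RT, 3208, 2839 and 3207 in Atf4WT cold, 4321, 4333 and 3976 in Atf4AKO RT and 3356, 3243 and 2929 in Atf4AKO cold. Edem1 had no overlap between cold and RT in either genotype and fell, with log2 fold changes of -0.48 (95% interval -0.66 to -0.31, adjusted p = 0.0015) in Atf4WT and -0.41 (95% interval -0.58 to -0.23, adjusted p = 0.0043) in Atf4AKO.

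Xbp1 (NM_013842; chr11 5520659 to 5525893, plus strand), the transcription factor whose mRNA is spliced by IRE1, fell the most in Atf4WT. Its normalized counts were 8335, 6917 and 6637 in Atf4WT RT and 5032, 4876 and 3987 in Atf4WT cold. In Atf4AKO they were 9563, 7659 and 6979 at RT and 4609, 4673 and 4347 after cold. The RT libraries were spread widely, and all of them lay above all cold libraries. The mean went from 7296 ± 910.3 (SD, n = 3) to 4632 ± 564 (SD, n = 3) in Atf4WT, with a log2 fold change of -0.66 (95% interval -0.95 to -0.37, adjusted p = 0.0041), and in Atf4AKO the value was -0.82 (95% interval -1.11 to -0.53, adjusted p = 0.0016).

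**Figure D1:**
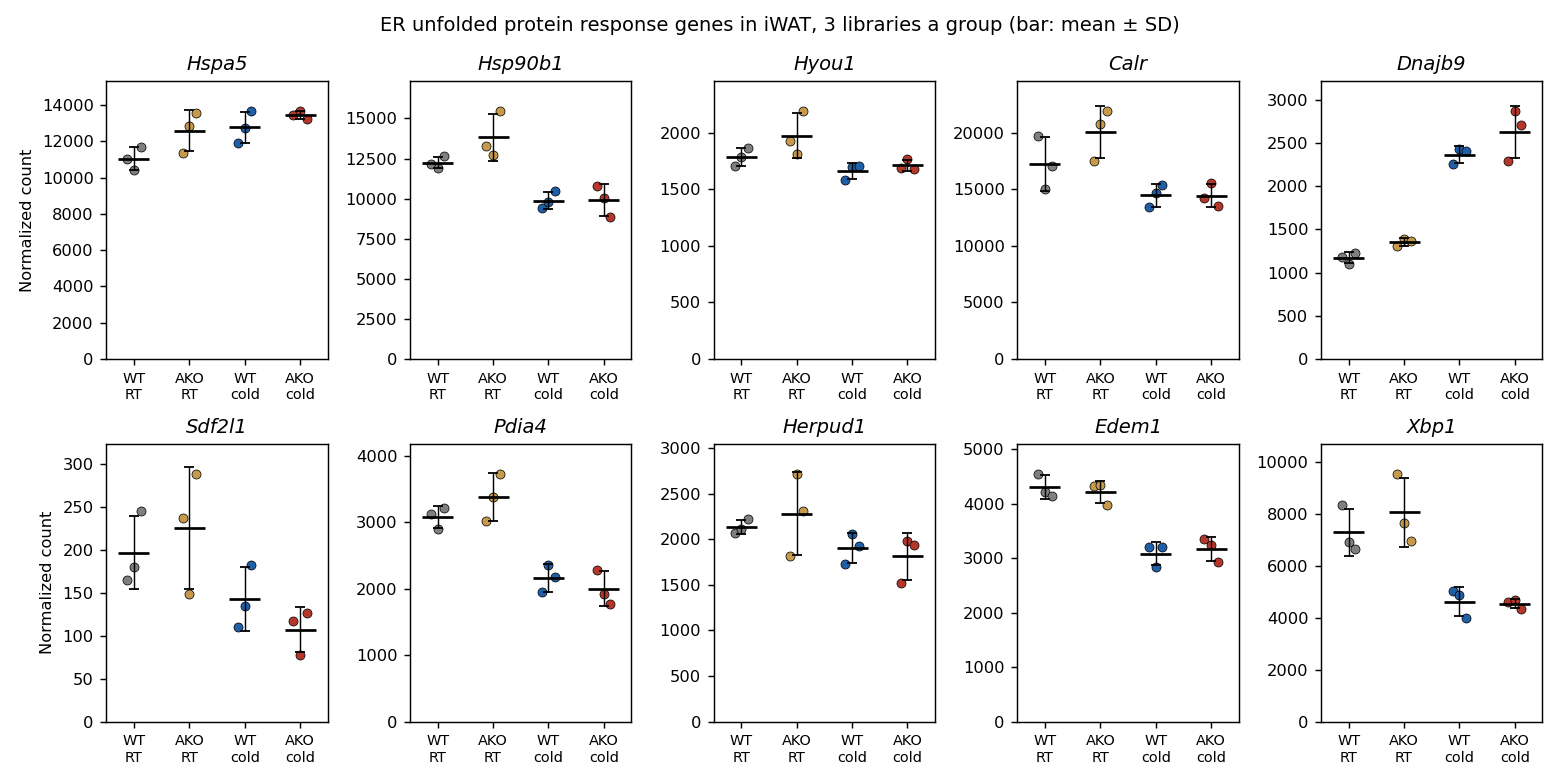
Normalized counts (vertical axis, linear from 0, a scale for each gene) of the 10 genes in the 4 groups, with 1 point per library and bars for the mean ± SD of 3 libraries. Dnajb9 is higher in all cold libraries, Hsp90b1, Hyou1, Pdia4, Edem1 and Xbp1 are lower in all cold libraries of each genotype, and the 2 genotypes overlap for every gene in the cold.

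Over the 10 genes, 5 passed an adjusted p of 0.05 for cold against RT in Atf4WT, 1 higher and 4 lower, where 17% of all tested genes were called higher and 14.9% lower. In Atf4AKO 7 passed, 1 higher and 6 lower, against 14.8% and 11% of all tested genes. By the fold change rule of the study (over 1.5-fold with an unadjusted p under 0.05), Dnajb9 and Xbp1 passed in Atf4WT, and Dnajb9, Xbp1, Pdia4 and Sdf2l1 in Atf4AKO. That rule called 10.9% of all genes higher and 10.3% lower in Atf4WT, and 8.3% and 8.92% in Atf4AKO. The cold and RT libraries did not overlap for 8 of the 10 in Atf4WT (Hspa5 and Dnajb9 higher, 6 lower) and for 8 in Atf4AKO (Dnajb9 higher, 7 lower). Among all genes this held for 23.9% higher and 22.9% lower in Atf4WT, and for 21.7% and 19.9% in Atf4AKO. The median log2 fold change of the 10 was -0.28 in Atf4WT and -0.44 in Atf4AKO, beside 0.0026 and -0.032 over all genes. The fibroblast markers moved with these falls: their median log2 fold changes were -1.34 in Atf4WT and -1.31 in Atf4AKO, and 2 and 3 of 8 passed the test, all lower. Macrophage markers had medians of -0.66 and -1.05, with 0 of 10 passing in either genotype. Endothelial medians were -0.17 and -0.021, and white adipocyte medians 0.036 and -0.033. The part of these cell types in the falls was not tested.

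**Figure D2:**
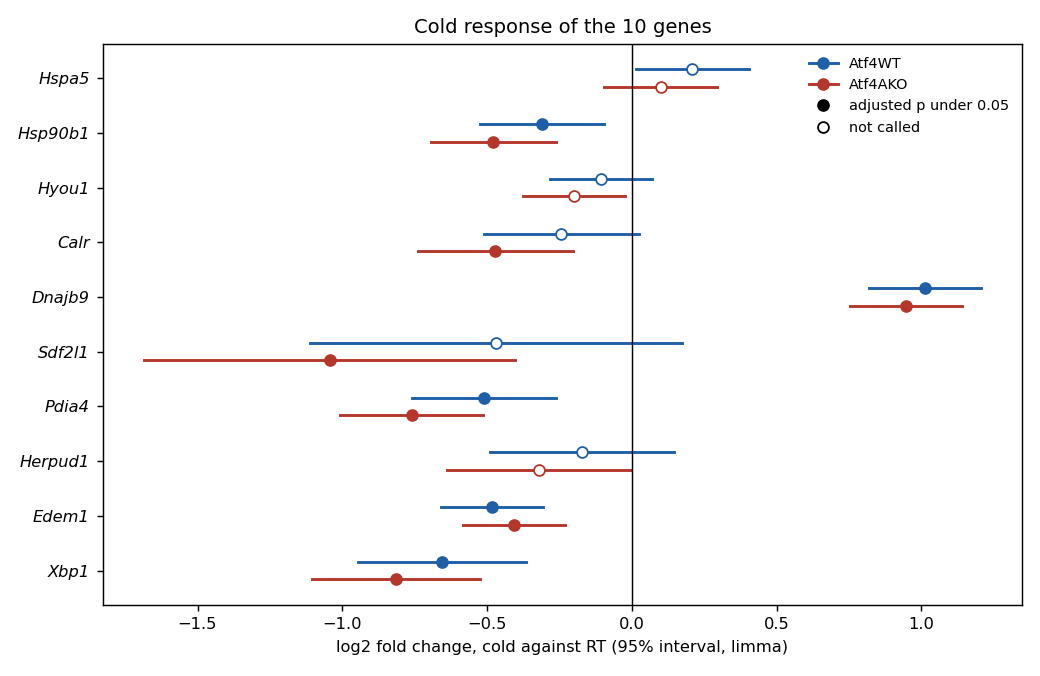
Log2 fold change of cold against RT (horizontal axis) for each of the 10 genes, in Atf4WT (blue) and Atf4AKO (red), with 95% intervals from limma and filled points for an adjusted p under 0.05. Dnajb9 sits at 1.01 and 0.95 and Xbp1 at -0.66 and -0.82, and the intervals of the 2 genotypes overlap for every gene.

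T cell marker sums in Atf4WT cold were above those of every other group, and B cell marker sums were above all but 1 library at RT. The mean log2 level of these lymphocyte markers was therefore entered as a covariate. With it, 3 of the 10 passed in Atf4WT: Dnajb9, Pdia4 and Sdf2l1. Over all genes the covariate took the calls in Atf4WT from 4273 of 13404 to 1812 of 13381, so the loss of calls was not particular to the 10. In Atf4WT the T cell sums were 328 to 869 at RT and 1016 to 7996 in the cold. The covariate and cold therefore cannot be separated well in Atf4WT, and the lost calls do not show what lymphocytes contribute. Hsp90b1 went from -0.31 to -0.49 on the log2 scale and no longer passed (adjusted p = 0.053, limma). Edem1 went from -0.48 to -0.41 (adjusted p = 0.064) and Xbp1 from -0.66 to -0.45 (adjusted p = 0.18), and neither passed. Sdf2l1 went from -0.47 to -1.36 and passed (adjusted p = 0.030). In Atf4AKO the same covariate left 7 passing, beside 3543 of 13381 genes, against 3467 of 13404 without it.

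Between genotypes in the cold, none of the 10 genes differed past the threshold. All 10 had overlapping Atf4WT and Atf4AKO libraries in the cold, while 16.5% of all genes did not overlap. No gene of the 10 passed the adjusted threshold in limma, edgeR or DESeq2, none had an unadjusted limma p under 0.05, and the smallest unadjusted p was 0.124, for Dnajb9. Over all genes, limma called 0.0298% past the adjusted threshold, and the fold change rule, which called none of the 10, called 6.4%. An unadjusted limma p under 0.05 was found for 1571 of the 13404 genes. For Hspa5 the log2 fold change was 0.076 (95% interval -0.12 to 0.27, adjusted p = 0.79), which is 0.920-fold to 1.21-fold. Hsp90b1 was at 0.0021 (95% interval -0.21 to 0.22, adjusted p = 0.996), Calr at -0.0055 (95% interval -0.27 to 0.26, adjusted p = 0.991) and Xbp1 at -0.021 (95% interval -0.31 to 0.27, adjusted p = 0.97). The widest interval was that of Sdf2l1, at -0.41 (95% interval -1.05 to 0.23, adjusted p = 0.63), or 0.482-fold to 1.17-fold. Dnajb9 was at 0.15 (95% interval -0.047 to 0.34, adjusted p = 0.57). The other 4, Hyou1, Pdia4, Herpud1 and Edem1, had log2 fold changes of 0.045, -0.12, -0.074 and 0.042. In the same comparison the median B cell marker stood at -5.57 on the log2 scale. With the lymphocyte covariate Sdf2l1 turned from -0.41 to 0.69 and Pdia4 from -0.12 to 0.16. That fit called 0 of 13381 genes, so nothing is read from the absence of the 10 among its calls. B cell marker sums were 3942 to 13494 in Atf4WT cold and 91.8 to 371 in Atf4AKO cold. The groups did not overlap, so the covariate and the genotype cannot be separated well in the cold.

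At RT 9 of the 10 genes had a higher mean in Atf4AKO than in Atf4WT, with a median log2 fold change of 0.15 beside 0.0056 over all genes, and Edem1 was the exception. Of all tested genes 51.8% were higher. The 10 genes share libraries and size factors, so their directions are not independent. None passed the adjusted threshold in limma, edgeR or DESeq2, and limma called 0.00746% of all genes. The unadjusted limma p was under 0.05 for 1 of the 10, beside 205 of all 13404 genes. Dnajb9 was that gene, at 0.21 (95% interval 0.016 to 0.40, adjusted p = 0.9999), and its unadjusted limma p was 0.036. Hsp90b1 and Dnajb9 were higher in every Atf4AKO RT library than in every Atf4WT RT library, while 6.3% of all genes did not overlap in this comparison. The fold change rule called none of the 10 and 0.463% of all genes. Hspa5 was at 0.19 (95% interval -0.0092 to 0.38, adjusted p = 0.9999) and Calr at 0.22 (95% interval -0.045 to 0.49, adjusted p = 0.9999). Without Atf4AKO RT replicate 2, which had the highest count of 6 of the 10 genes in its group, the median of the 10 was 0.074.

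**Figure D3:**
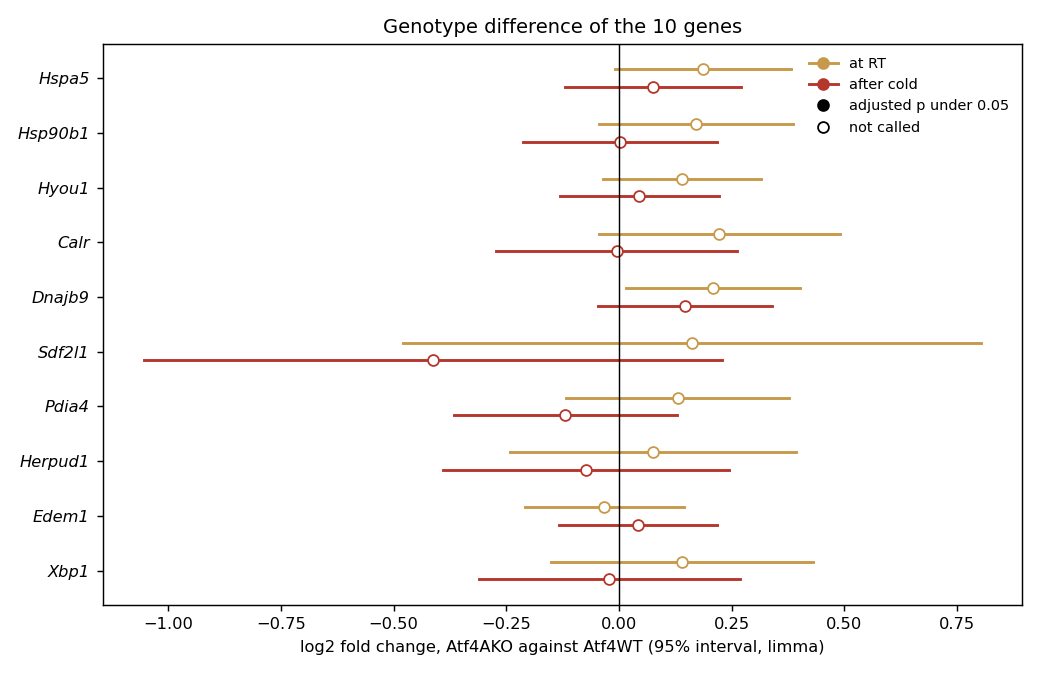
Log2 fold change of Atf4AKO against Atf4WT (horizontal axis) for each of the 10 genes at RT (tan) and after cold (red), with 95% intervals from limma and open points where the adjusted p was not under 0.05. No point is filled, and in the cold every interval includes 0.

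The cold responses of the genotypes were compared directly. The difference of the responses (Atf4AKO minus Atf4WT, log2) was below 0 for 9 of the 10 genes, with a median of -0.15 beside 0.035 over all genes. Of all tested genes 56.5% were above 0, and the directions of the 10 are not independent here either. No gene of the 10 passed the adjusted threshold in limma, edgeR or DESeq2, and none had an unadjusted limma p under 0.05. Over all genes limma called 0%, with 928 at an unadjusted p under 0.05, edgeR called 0 and DESeq2 128. The fold change rule called none of the 10 and 4.63% of all genes. Sdf2l1 had the widest interval, at -0.57 (95% interval -1.48 to 0.33, adjusted p = 0.98), and Pdia4 the smallest unadjusted p, at -0.25 (95% interval -0.60 to 0.10, adjusted p = 0.93). Calr and Sdf2l1 passed the cold test in Atf4AKO and not in Atf4WT, and this difference did not pass for either. The comparisons in the cold, at RT and of responses share libraries, so their values are not independent.

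Levels of different genes were set side by side as normalized counts per kilobase of exon. Calr was the highest of the 10 in every group, at 5980 ± 813 per kilobase (SD, n = 3) in Atf4WT RT, and Sdf2l1 the lowest, at 177 ± 38.5. Hsp90b1, Hspa5 and Xbp1 followed Calr at RT, and in the cold Hspa5 stood above Hsp90b1 in both genotypes. Dnajb9 moved from the 8th place at RT to the 5th in the cold in both genotypes, next to Pdia4. Neighbours in this order overlapped between libraries for Dnajb9 and Pdia4, and for Pdia4 and Herpud1, in both cold groups. At RT they overlapped for Hspa5 and Xbp1 in both genotypes, and in Atf4AKO RT also for Hsp90b1 and Hspa5 and for Hyou1 and Sdf2l1.

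Within groups the 10 genes did not all vary together. Each library's log2 value was taken as a deviation from its group mean, over 12 libraries, and all genes of a library share its depth and size factor. Of the 9 pairs with Xbp1, 8 had a negative Pearson correlation, with a median of -0.37, and Hspa5 with Xbp1 was at -0.76. The 36 pairs without Xbp1 had a median of 0.26 and ran from -0.49 to 0.76. Hspa5 with Calr (0.76), Dnajb9 with Herpud1 (0.75) and Hsp90b1 with Pdia4 (0.75) were the closest. The genes whose deviations were most like the mean of the 10, among 11832 genes whose mean normalized count reached 50, were Gbp8 (0.98), Nlrc5 (0.97), Marf1 (0.97), Serpinb9 (0.96) and Gimap4 (0.96). For Hspa5 alone they were Clec9a, Eif4b and Cxxc1 (each 0.92), and Chd3 and Sympk (each 0.91). These are the largest of many correlations over 12 libraries, picked by rank. Taken singly, each of the 10 genes had a best partner at between 0.92 (Hspa5) and 0.98 (Sdf2l1). Values of this height are therefore no evidence of a link with the genes named, and none was tested.

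The wider ER protein quality control list held 121 further genes in 6 roles, of which 120 were tested. After cold 20 of them passed the adjusted threshold higher and 27 lower in Atf4WT, and 17 higher and 23 lower in Atf4AKO, beside the 17% and 14.9% of all genes in Atf4WT and the 14.8% and 11% in Atf4AKO given above. The counts for each role are to be read against these same shares. The median log2 fold changes were -0.021 and -0.024. Between genotypes in the cold limma and edgeR each called 1 of the 120 and DESeq2 3. The unadjusted limma p was under 0.05 for 10 of the 120, beside 1571 of all 13404 genes. The limma call was Atf4 itself, at -2.60 (95% interval -3.08 to -2.13, adjusted p = 0.00064). The fold change rule also called Trib3, at -0.82 (95% interval -1.62 to -0.026, adjusted p = 0.4), and Ero1lb, an ER oxidase named here after its value was seen, at -0.62 (adjusted p = 0.14). At RT and for the difference of the responses limma called none, with 4 and 5 of the 120 at an unadjusted p under 0.05. Over all 13404 genes 205 and 928 had such a p. In those 2 comparisons edgeR also called none, and DESeq2 called 1 and none.

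Of 12 sensor and transcription factor genes tested, 1 rose and 4 fell in Atf4WT, and 1 rose and 3 fell in Atf4AKO. Nfyc, a subunit of the NF-Y factor that binds the CCAAT part of the ERSE, rose in both, at 0.86 (95% interval 0.59 to 1.13, adjusted p = 0.00071) in Atf4WT and 0.95 (95% interval 0.68 to 1.22, adjusted p = 0.00049) in Atf4AKO. Creb3l1 and Creb3l3, which encode membrane-bound factors cut like ATF6, fell in both, with log2 fold changes of -1.32 and -2.90 in Atf4WT (adjusted p = 0.018 and 0.00094, limma). Creb3l3 had low normalized counts, at 48.2 to 68.9 in Atf4WT RT and 4.22 to 13.4 in Atf4WT cold, so the size of its fall is uncertain. None of the sensors rose. Ern1 was at -0.25 (95% interval -0.72 to 0.23, adjusted p = 0.41) in Atf4WT and Atf6 at 0.16 (95% interval -0.063 to 0.38, adjusted p = 0.25). Eif2ak3 was at -0.30 (95% interval -0.56 to -0.05, adjusted p = 0.065) in Atf4WT and fell in Atf4AKO, at -0.40 (95% interval -0.65 to -0.14, adjusted p = 0.027).

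Of the 11 genes of the PERK branch, 4 rose in Atf4WT and 2 in Atf4AKO, and none passed lower. Among all genes 17% and 14.8% were called higher and 14.9% and 11% lower, and nothing is read from the absence of lower calls among so few genes. The lowest values were those of Chac1, an ATF4 and CHOP target named here after its values were seen, at -0.77 (adjusted p = 0.30) in Atf4WT and -0.82 (adjusted p = 0.29) in Atf4AKO. Ddit3 (CHOP) was counted at 595, 623 and 503 in Atf4WT RT, 1124, 979 and 818 in Atf4WT cold, 527, 567 and 574 in Atf4AKO RT and 789.8, 1317 and 752 in Atf4AKO cold. It rose in both genotypes, at 0.76 (95% interval 0.33 to 1.19, adjusted p = 0.014) in Atf4WT and 0.73 (95% interval 0.30 to 1.16, adjusted p = 0.019) in Atf4AKO. Asns, the asparagine synthetase, also rose in both, at 0.75 (95% interval 0.35 to 1.14, adjusted p = 0.01) and 0.83 (95% interval 0.43 to 1.23, adjusted p = 0.0072). Ppp1r15a (GADD34), which brings phosphatase to eIF2α, rose in Atf4WT, at 0.69 (95% interval 0.37 to 1.0, adjusted p = 0.005), and was at 0.28 (95% interval -0.032 to 0.60, adjusted p = 0.17) in Atf4AKO. The difference of these responses was -0.40 (95% interval -0.85 to 0.046, adjusted p = 0.79). Trib3, a pseudokinase downstream of ATF4, did not pass in either, at 0.25 (95% interval -0.55 to 1.05, adjusted p = 0.63) and -0.44 (95% interval -1.23 to 0.36, adjusted p = 0.4). Atf4 mRNA was at 0.53 (95% interval 0.06 to 1.01, adjusted p = 0.08) in Atf4WT, which missed the threshold.

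Of 26 chaperones and co-chaperones outside the 10, 3 rose and 9 fell in Atf4WT, where 17% of all genes were called higher and 14.9% lower. In Atf4AKO 1 rose and 7 fell, beside 14.8% and 11% of all genes. Serpinh1 (HSP47), the chaperone of collagen, fell, with log2 fold changes of -1.0 (95% interval -1.34 to -0.65, adjusted p = 0.0011) in Atf4WT and -0.91 (95% interval -1.26 to -0.57, adjusted p = 0.002) in Atf4AKO. The prolyl isomerases Fkbp14 and Fkbp7 fell, with log2 fold changes of -1.15 and -0.84 in Atf4WT (adjusted p = 0.00013 and 0.00088) and of -0.76 and -0.60 in Atf4AKO (adjusted p = 0.0015 and 0.0061). Manf, a secreted ER stress factor, rose in Atf4WT, at 0.53 (95% interval 0.35 to 0.72, adjusted p = 0.0012). In Atf4AKO its normalized counts were also higher after cold, at 2308 to 2693 against 1735 to 2133 at RT. The fibroblast markers, whose sums were lower in every cold library, moved with these falls too. Macrophage marker medians were also below 0, with sums that overlapped between cold and RT. The part of either cell type was not tested.

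Of 19 disulfide isomerases and oxidases, 4 passed higher and 7 lower in Atf4WT and 5 higher and 8 lower in Atf4AKO. Pdia6 fell in both, at -0.72 (95% interval -0.96 to -0.48, adjusted p = 0.00087) in Atf4WT and -0.81 (95% interval -1.05 to -0.57, adjusted p = 0.00053) in Atf4AKO. Txndc5 fell as well, at -0.35 (95% interval -0.50 to -0.20, adjusted p = 0.0031) and -0.47 (95% interval -0.62 to -0.32, adjusted p = 0.00078). Txndc11, a thioredoxin domain protein of the ER membrane, rose at 0.82 (95% interval 0.62 to 1.02, adjusted p = 0.00014) and 0.66 (95% interval 0.46 to 0.85, adjusted p = 0.00062). Of 29 degradation genes, 6 rose and 7 fell in Atf4WT and 5 rose and 4 fell in Atf4AKO. Ufd1 and Nploc4, the partners of the p97 segregase that pulls proteins out of the membrane, both rose, at 0.45 (95% interval 0.28 to 0.63, adjusted p = 0.002) and 0.41 (95% interval 0.24 to 0.57, adjusted p = 0.0026) in Atf4WT. They rose in Atf4AKO too, at 0.61 and 0.47 (adjusted p = 0.00048 and 0.0015, limma). Man1b1, an ER mannosidase, fell, at -0.50 (95% interval -0.63 to -0.38, adjusted p = 0.00016) in Atf4WT and -0.45 (95% interval -0.57 to -0.32, adjusted p = 0.00038) in Atf4AKO. Of 23 genes of translocation and signal peptide cleavage, 2 rose and none fell in Atf4WT, and 3 rose and 1 fell in Atf4AKO, with Srp72, of the signal recognition particle, at 0.23 (95% interval 0.051 to 0.40, adjusted p = 0.05) and 0.34 (95% interval 0.17 to 0.52, adjusted p = 0.0098).

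**Figure D4:**
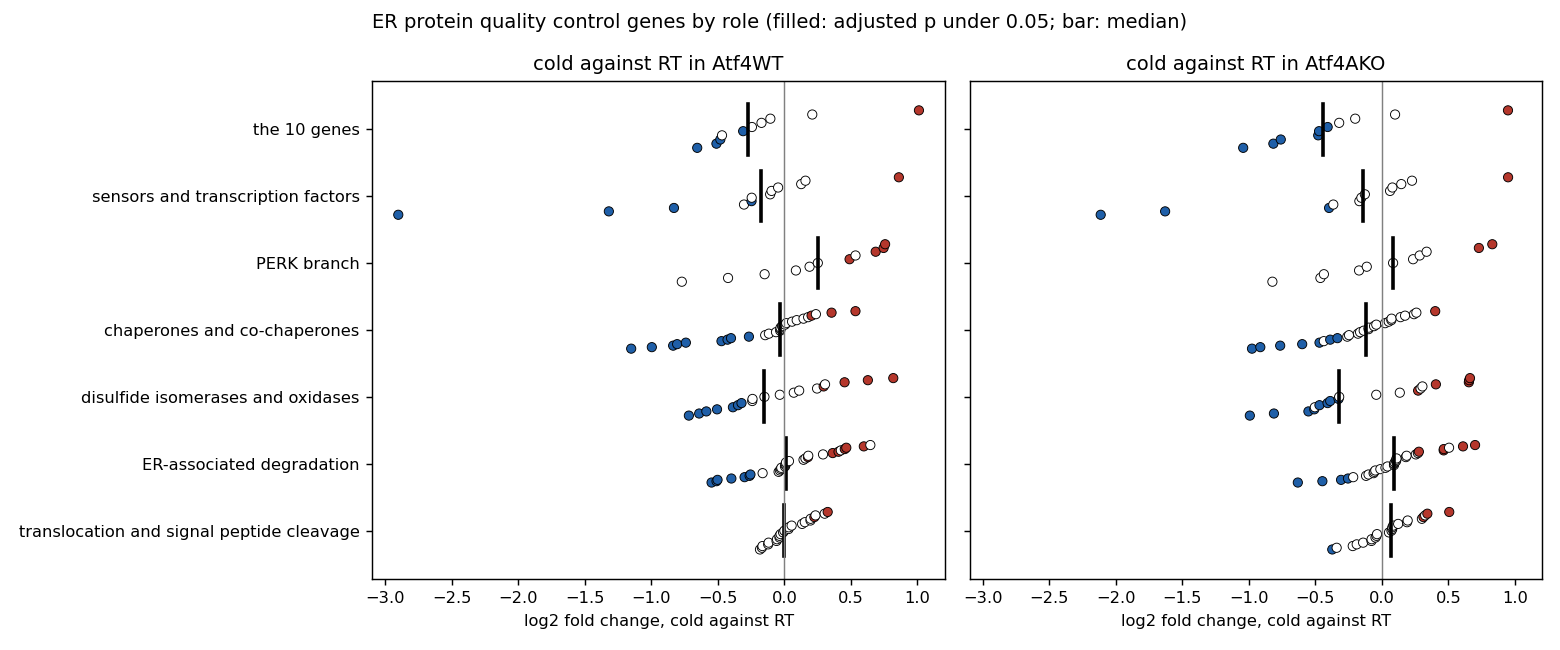
Log2 fold change of cold against RT (horizontal axis) for the 10 genes and for 120 further genes in 6 roles, in Atf4WT (left) and Atf4AKO (right), with 1 point per gene, filled red (higher) or blue (lower) for an adjusted p under 0.05, and a black bar at the median. The 10 genes have 1 red point in each panel, Dnajb9, beside 4 blue points in Atf4WT and 6 in Atf4AKO.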

How the data were processed

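RNA-seq was analysed from iWAT of Atf4WT and Atf4AKO mice at RT or after 24 h of cold (12 libraries, 3 per group, grouped by the GEO labels). Before deposit, the authors' steps were a SOAPnuke read filter, STAR alignment (mm10), featureCounts on unique alignments, and pyDESeq2 size factors. Versions, annotation release and strand setting are not given in the sources used here, and the library kit was strand-specific. The deposited values are signal on a count scale: reads divided by a size factor for each library. Within a library all values were multiples of its lowest value, so whole reads could be read back for 100% of them (tolerance 0.01 reads).

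Genes whose mean normalized count reached 10 were tested with limma 3.58.1 (R 4.3.3) on log2(normalized count + 1), with 4 group means over all 12 libraries and Benjamini-Hochberg adjustment over 13404 genes; fold changes are on that scale, and adjusted p-values are from this fit unless another tool is named. This understates changes of low genes. The second rule, over 1.5-fold with an unadjusted p under 0.05, is that of the study's methods. edgeR 4.0.16 and DESeq2 1.42.0 on the recovered reads were alternatives, beside other pseudocounts, filters, scaling, a replicate block, a lymphocyte covariate and leaving out each library. In simulated Atf4WT cold against RT data, 100 genes were changed 3-fold, 100 were changed 1.6-fold, and the others were left unchanged. Of these, limma recovered 82 and 33, with 2 false calls among 13390 genes. DESeq2 recovered 88 and 54, with 40 false calls among 14159 genes. In the real comparison limma called 4273 of 13404 genes, so its adjusted threshold is less strict. The simulated recovery therefore does not give the sensitivity of the real cold test.

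The 10 genes, the wider list and the marker lists (B cells, T cells, plasma cells, macrophages, white and beige adipocytes, mammary epithelium, muscle, fibroblasts, endothelium) were chosen with earlier results of these data known. All 10 genes are named in every comparison. Of each role of the wider list, up to 4 called genes with the smallest p were eligible, together with Ern1, Eif2ak3, Atf6, Atf4, Ddit3, Ppp1r15a and Trib3, and the 5 genes most like the mean of the 10 and most like Hspa5 among genes with a mean of at least 50. Gene positions are from GENCODE M21 (GRCm38).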

Additional observations from a re-analysis of the deposited data

How the results depend on the processing

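The counts of the 10 genes past the adjusted threshold stayed within 1.5 times the value above under every alternative run except the lymphocyte covariate, with which 3 passed for cold in Atf4WT. That covariate also lowered the calls over all genes in this comparison, from 4273 to 1812, and it cannot be separated well from cold in Atf4WT. Leaving out each library in turn gave 4 to 5 for cold in Atf4WT, 5 to 7 in Atf4AKO, and 1 to 2 by the fold change rule in Atf4WT, with 1 left without Atf4WT RT replicate 0 or Atf4WT cold replicate 2. The count was 0 for both genotype comparisons and the difference of responses under every alternative run. Over all genes the lymphocyte covariate also called 0 of 13381 between genotypes in the cold and for the difference of responses. With the replicate block, 5 passed for cold in Atf4WT and 8 in Atf4AKO, Herpud1 being added (adjusted p = 0.032, limma), and no other call for the 10 genes changed. Same-numbered libraries correlated between -0.22 and 0.42, and libraries of different number between -0.54 and 0.34. Between genotypes, replicates 1 and 2 were at 0.40 and 0.42 in the cold and 0.39 and 0.41 at RT. Replicate 0 was at -0.17 in the cold and -0.046 at RT. Whether the numbers mark pairs was not settled, and the main fit did not use them. Herpud1 also passed without Atf4AKO RT replicate 0 (adjusted p = 0.032). With DESeq2, Hspa5 passed as higher for cold in Atf4WT (adjusted p = 0.04995). Over all genes in the cold genotype comparison, limma called 4, edgeR 3, the replicate block 189 and DESeq2 591, and for the difference of responses DESeq2 called 128 and limma 0.

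Directions turned only for values that passed no test. For Atf4AKO against Atf4WT in the cold, rescaling to 1 upper quartile gave -0.043 for Hsp90b1 and -0.0027 for Edem1, edgeR gave 0.0030 for Calr, and the lymphocyte covariate gave 0.050 for Calr, 0.69 for Sdf2l1, 0.16 for Pdia4 and -0.047 for Edem1 (log2). For the difference of responses that covariate gave 0.057 for Hspa5, 0.040 for Hsp90b1, 0.070 for Hyou1, 0.48 for Sdf2l1, 0.016 for Pdia4 and -0.010 for Edem1. It moved the median of the 10 to -0.35 for cold in Atf4WT, 0.17 between genotypes in the cold and 0.0027 for the difference of responses. Leaving out 1 library at a time, the cold genotype values ran from -0.062 to 0.079 for Hsp90b1, -0.061 to 0.040 for Calr, -0.14 to 0.051 for Herpud1, -0.017 to 0.099 for Edem1 and -0.13 to 0.042 for Xbp1. At RT they ran from -0.045 to 0.43 for Sdf2l1, -0.062 to 0.23 for Herpud1 and -0.059 to 0.0086 for Edem1, and the difference of responses from -0.13 to 0.030 for Dnajb9. The cause of these changes was not tested. Among the 10 genes the widest intervals were those of Sdf2l1, which had the lowest counts.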
